A study of Mus musculus with 6 samples.

Results

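The 51 genes described here encode developmental transcription factors that Polycomb complexes are known to keep silent outside the lineages that need them. They were chosen by name, and all 51 have a row among the 43346 gene symbols of the deposited count table. Polycomb repressive complex 2 puts methyl groups on lysine 27 of histone H3, and Polycomb repressive complex 1 binds the marked chromatin and holds the gene off. The X-linked gene Kdm6a (Utx) encodes a demethylase that takes this mark off again. The genes direct the fate of other organs, such as heart, limb, muscle or vertebrae, or of single territories of the embryonic neural tube, and many of the neural ones stay on in small groups of adult neurons. No histone mark was measured in these files, so "silent" means here that no read was counted, and Polycomb silencing itself was not tested.

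The brains of 6 adult C57BL/6 males were sequenced as bulk RNA. In the 3 Kdm6a deficient mice, born to Kdm6a-LoxP mothers and Thy1-Cre fathers, Cre recombinase is driven by the Thy1 promoter, which acts mainly in neurons, so glia and vessels are outside its main reach. The other 3 were wild type littermates, and the labels do not say whether they carried the Cre transgene or the loxP allele. The question asked of the 51 genes is whether any silent one was switched on, or any active one switched off, when Kdm6a was deficient.

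The libraries held 18542590 to 24531408 counts, and levels are given as CPM, counts per 1e6 of a library size scaled by edgeR. Values for 3 mice stand in the order of mouse 1, 2 and 3 throughout. Kdm6a itself was at 22.3, 25.2 and 25.2 CPM in the deficient mice, against 34.5, 35.0 and 34.3 CPM in the wild-type mice, at 70.0% of the wild-type level (-0.51 ± 0.07 as a log2 fold change with its SE, adjusted p = 0.00761 by edgeR's quasi-likelihood test). The 8 neuron markers summed to 7736 to 8184 CPM in the deficient mice and 7908 to 8017 CPM in the wild-type mice. One library stood apart: wild-type mouse 3 had 23860 counts of the growth hormone gene Gh, against 8 to 120 in the other 5 libraries, and 8942 counts of the prolactin gene Prl, against 4 to 48, which are genes of the anterior pituitary. In a bulk sample, fewer cells of a type and less RNA per cell cannot be told apart.

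CpG-rich promoters are where Polycomb complexes are known to gather in mammalian cells, and the promoters of 4 of the genes are given for that reason. Hand2 and Nkx2-5 were silent in all 6 mice, Phox2a had the smallest unadjusted p of the 51 once low counts were let into the fit, and Pax6 is one of the most active. The windows run from 250 bases before to 50 bases after a transcription start of RefSeq on GRCm38.p6, 5′ to 3′ on the strand of the gene, with every CpG dinucleotide in capitals. They lie at chr8:57320733-57321032, plus strand (Hand2), chr17:26841516-26841815, minus strand (Nkx2-5), chr7:101818063-101818362, plus strand (Phox2a) and chr2:105668646-105668945, plus strand (Pax6).
Hand2: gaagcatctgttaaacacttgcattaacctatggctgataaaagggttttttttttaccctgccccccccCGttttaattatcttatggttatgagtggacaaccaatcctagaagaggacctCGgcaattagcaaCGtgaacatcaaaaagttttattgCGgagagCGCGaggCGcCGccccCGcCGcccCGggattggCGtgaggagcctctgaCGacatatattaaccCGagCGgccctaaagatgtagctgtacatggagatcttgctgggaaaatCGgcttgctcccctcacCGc
Nkx2-5: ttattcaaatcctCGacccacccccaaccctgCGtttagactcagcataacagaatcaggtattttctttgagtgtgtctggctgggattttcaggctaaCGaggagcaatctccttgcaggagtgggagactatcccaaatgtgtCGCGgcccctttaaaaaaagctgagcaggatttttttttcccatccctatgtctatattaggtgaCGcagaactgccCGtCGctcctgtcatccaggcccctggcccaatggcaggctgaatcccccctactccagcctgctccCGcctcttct
Phox2a: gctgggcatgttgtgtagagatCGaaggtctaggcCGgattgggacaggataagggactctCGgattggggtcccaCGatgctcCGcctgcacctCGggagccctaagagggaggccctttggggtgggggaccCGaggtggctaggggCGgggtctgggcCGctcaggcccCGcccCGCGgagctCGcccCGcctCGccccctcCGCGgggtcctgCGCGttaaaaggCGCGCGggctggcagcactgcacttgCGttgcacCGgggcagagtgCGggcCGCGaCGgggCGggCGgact
Pax6: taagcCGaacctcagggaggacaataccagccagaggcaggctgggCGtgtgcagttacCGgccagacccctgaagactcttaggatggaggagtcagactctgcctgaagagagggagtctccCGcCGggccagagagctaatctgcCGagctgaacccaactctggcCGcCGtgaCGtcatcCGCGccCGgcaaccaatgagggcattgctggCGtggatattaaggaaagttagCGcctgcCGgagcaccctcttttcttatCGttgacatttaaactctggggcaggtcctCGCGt
The silent Hand2 window held 17 CpG, about as many as the 18 in the window of the active Pax6. Silent Nkx2-5 held 9 and Phox2a 30. Letters alone say nothing of what is bound there.

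Of the 51 genes, 37 had a promoter in the RefSeq table, and where a gene had several windows the one with the most CpG was used. Their windows held a median of 22 CpG (7 to 40), with a GC content of 60.3% at the median, against a median of 15 CpG and 57% GC over 17492 protein-coding genes. A window was called CpG-rich when its observed CpG number, divided by the number its C and G content predicts, was above 0.6 and its GC content above 50%. By that rule 24 of the 37 were CpG-rich (64.9%), against 48.0% of all protein-coding genes. Among the 25 genes with enough counts to be tested the share was 64%, and among the other 12 it was 66.7%. The shares of CpG-rich promoters in the tested and the near-silent genes lay close to each other. Six3, with 14 CpG, and Lhx1, with 31, stood side by side among the most active genes, at 2.56 and 3.36 CPM per kb of exon.

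**Figure D1:**
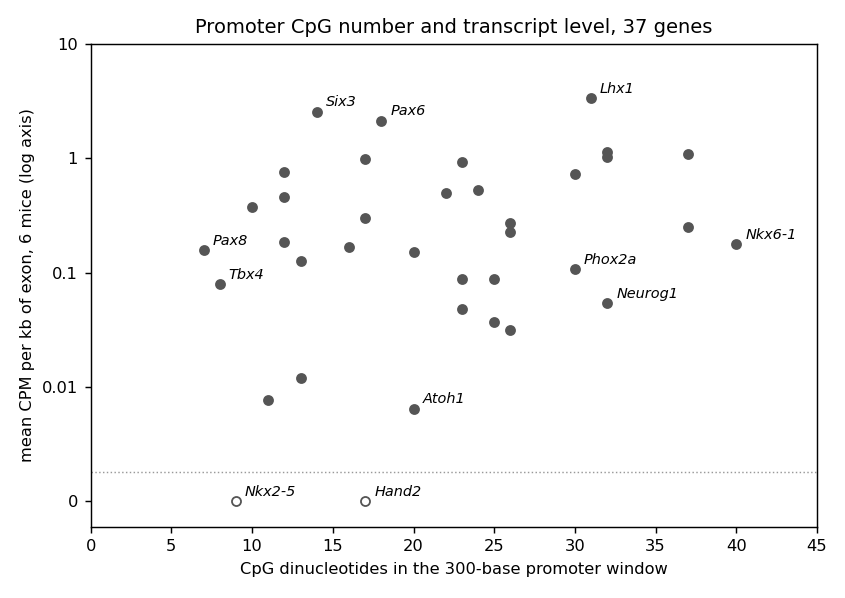
CpG dinucleotides in the 300-base promoter window (x axis) and mean level over the 6 mice in CPM per kb of exon (y axis, log scale, open circles at 0) for the 37 genes with a window. Genes with 7 to 40 CpG were spread over the whole range of levels, and silent Hand2 (17 CpG) lies below Pax6 (18 CpG).

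Silent and detected genes were the same in number in both genotypes to within a few genes. Of the 51 genes 43, 46 and 45 had at least 1 count in the deficient mice, against 44, 44 and 46 in the wild-type mice. Both groups spanned nearly the same range, and the lowest number fell in deficient mouse 1. Counted in all 6 mice were 39 genes, and 9 were counted in 1 to 5 of them. No count in any library was found for 3 genes, which are Nkx2-5 and Hand1, regulators of the heart, and Hand2, a regulator of heart, limb and sympathetic neurons. Over all 6 libraries a count of 0 allows a level of up to 0.0227 CPM, by the floor of 3 counts, which covers counting error only. Of all 43346 rows 52.5%, and 17.7% of the protein-coding ones, were without a count in any mouse.

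No gene was gained or lost between the genotypes by this measure. None of the 51 was counted in all 3 mice of one genotype and in no mouse of the other, in either direction, which held for 0.165% (deficient only) and 0.126% (wild type only) of the 20593 rows with any count. Tbx5, a regulator of heart and forelimb, was the single gene counted in one genotype alone, with 2 counts in deficient mouse 3 and 0 in the other 5 mice. The share of all rows counted in any mouse of one genotype alone was not computed. With at least 3 counts as the bar, Phox2a alone was present in all 3 deficient and in no wild-type mouse, and no gene the other way round. At that bar this held for 0.0971% (deficient only) and 0.034% (wild type only) of the rows with any count. Phox2a was also the only such gene at a bar of 0.1 CPM, where the shares over those rows were 0.0534% (deficient only) and 0.102% (wild type only).

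The genes spanned a wide range of levels per length of transcript. Per kb of exon, En2 stood highest at 7.82 CPM, followed by Lhx1 at 3.36, Six3 at 2.56 and Pax6 at 2.14 CPM. A second tier around 1 CPM per kb held Gata2 (1.14), Isl1 (1.09), Sox17 (1.04), Foxc1 (1.03) and Nkx2-2 (0.989). The lowest counted genes were Atoh1 at 0.00647 and Tbx5 at 0.00349 CPM per kb. Exon lengths are those of GENCODE M21, which may differ from the annotation that was counted. Of 30 genes known for fates of the neural tube and its neurons 24 had enough counts for the test, and of 21 known for mesoderm, endoderm, vessels or neural crest 7 had. Each gene was put in a single set, though some, such as Tbx20 and Pax8, have roles in both. The contrast depends in part on that choice.

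**Figure D2:**
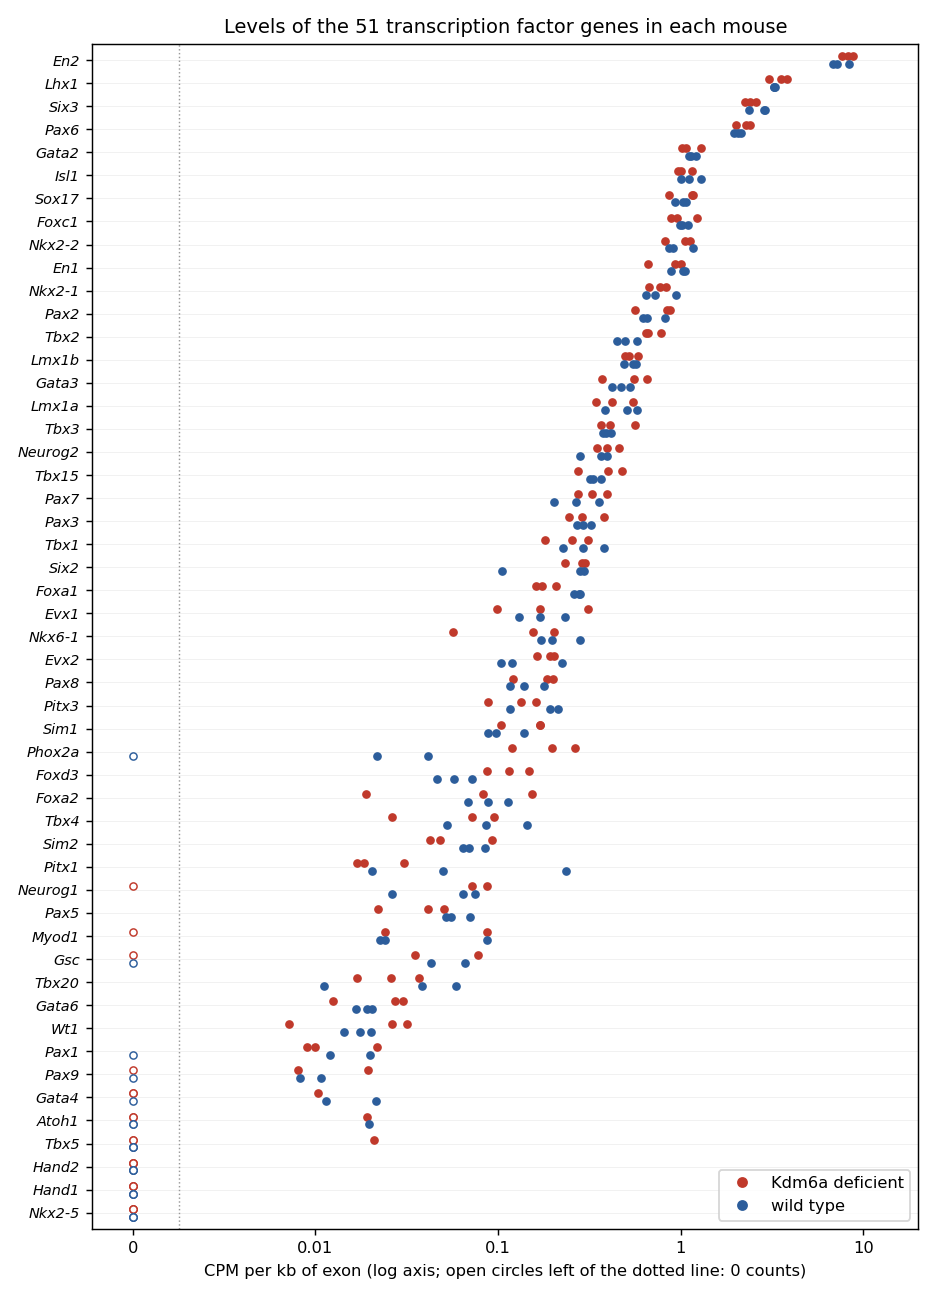
Level of each of the 51 genes in each mouse, in CPM per kb of exon (x axis, log scale), ordered by the mean. Each point is 1 mouse (red, deficient; blue, wild type), and open circles left of the dotted line are libraries with 0 counts, as for Nkx2-5, Hand1 and Hand2 in all 6 mice.

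None of the 31 genes with enough counts passed a false discovery rate of 5% by edgeR's quasi-likelihood test, where 0.0466% of all 15030 genes tested did (7 genes). Of the 31, 1 had an unadjusted p under 0.05 (Tbx2, higher in the deficient mice), against 5.83% of all genes tested in either direction and 2.46% in the higher direction. DESeq2 gave an adjusted p to 18 of the 48 genes with counts and called none of these, against 0.153% of all genes to which it gave one. The rest of the 48, Phox2a among them, were left without one, and Phox2a was the only gene of the 48 with an unadjusted DESeq2 p under 0.05. The smallest adjusted p among the 31 was 0.799, for Tbx2. Log2 fold changes, deficient over wild type, ran from -0.68 for Nkx6-1 to 0.48 for Sim1, with a median of 0.07 against 0.00 over all genes tested. Positive values were 18 of 31, against 50.1% of all genes tested. The median SE was 0.21 for these genes and 0.08 over all genes tested, so that for most of the 31 a small difference could not be told from the spread between mice.

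**Figure D3:**
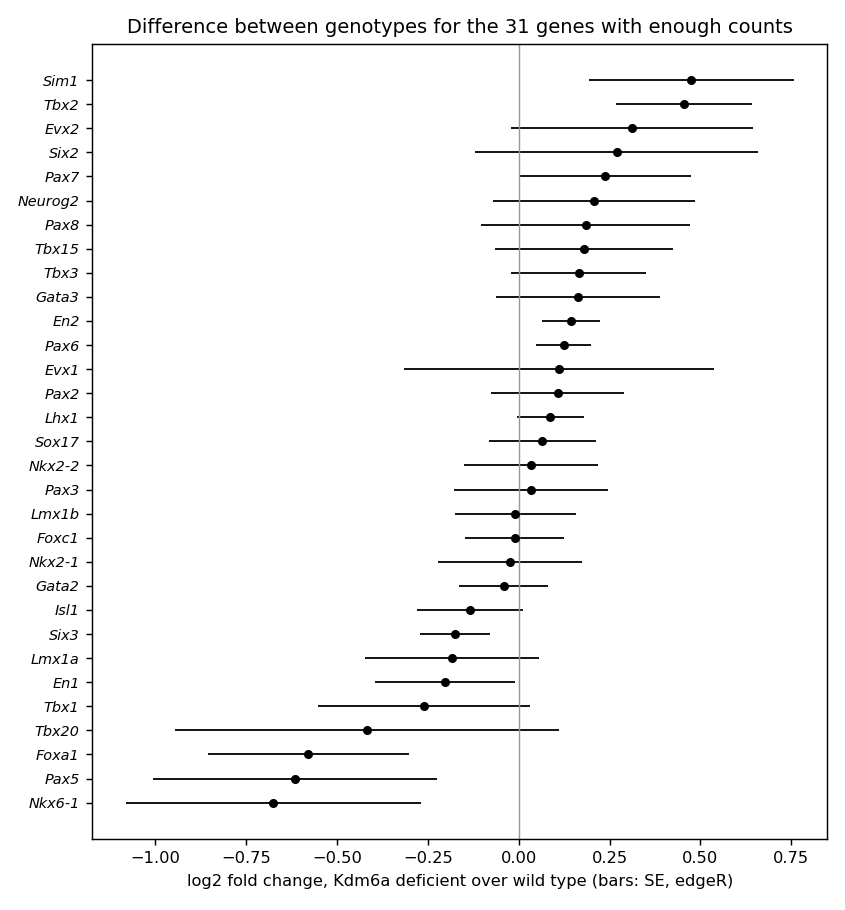
Log2 fold change (x axis, deficient over wild type) of the 31 genes with enough counts, with bars of 1 SE. Sim1 (0.48) and Tbx2 (0.46) lie highest and Nkx6-1 (-0.68) lowest, and the most precise values, such as Pax6 and En2, lie within 0.2 of 0.

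The most active genes were those of cerebellum and forebrain neurons, and their groups overlapped. En2, which patterns midbrain and cerebellum and stays on in cerebellar granule cells, was at 26.9, 30.9 and 29.2 CPM in the deficient mice, against 24.2, 29.5 and 25.3 CPM in the wild-type mice, with a log2 fold change of 0.14 ± 0.08 (SE, adjusted p = 0.886, edgeR). In the same form for each gene that follows, Pax6, a regulator of eye and cortex that adult granule cells and olfactory bulb neurons keep, was at 23.5, 28.1 and 26.6 CPM in the deficient mice, against 22.8, 24.1 and 24.9 CPM in the wild-type mice, or 0.12 ± 0.08 (SE, adjusted p = 0.893, edgeR). For both, wild-type mouse 1 was the lowest and deficient mouse 2 the highest of the 6. Lhx1, a LIM homeodomain factor of Purkinje cells and the suprachiasmatic nucleus, was at 12.4, 14.4 and 15.4 CPM in the deficient mice, against 13.2, 13.4 and 13.1 CPM in the wild-type mice, or 0.09 ± 0.09 (SE, adjusted p = 0.939, edgeR). The 15 cerebellum markers summed to 2548, 2821 and 3067 CPM in the deficient mice and 2557, 2846 and 2721 CPM in the wild-type mice, lowest in deficient mouse 1 and highest in deficient mouse 3, and 12 of the 15 had positive log2 fold changes with none past 5% FDR. Itpr1 alone was at 1209, 1309 and 1455 CPM in the deficient mice, against 1344, 1460 and 1335 CPM in the wild-type mice. It outweighed every other marker of the list, so the order of the sums leans on this gene. The part of the cerebellum markers in the values of En2, Pax6 and Lhx1 was not tested.

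Genes of striatum and hypothalamus lay a little lower or higher in the deficient mice, and none passed 5% FDR. Six3, which shapes the anterior forebrain and eye and marks striatal neurons, was at 14.1, 12.3 and 13.0 CPM in the deficient mice, against 15.8, 12.9 and 15.6 CPM in the wild-type mice, or -0.18 ± 0.10 (SE, adjusted p = 0.881, edgeR). Isl1, of motor and striatal neurons, was at 3.97, 3.81 and 4.55 CPM in the deficient mice, against 5.11, 3.95 and 4.39 CPM in the wild-type mice, or -0.13 ± 0.15 (SE, adjusted p = 0.939, edgeR). Nkx2-1, the regulator of ventral forebrain, thyroid and lung, was at 2.36, 1.91 and 2.20 CPM in the deficient mice, against 2.67, 2.06 and 1.84 CPM in the wild-type mice, or -0.02 ± 0.20 (SE, adjusted p = 0.995, edgeR). All 3 genes overlapped between genotypes, with wild-type mouse 1 the highest each time. Sim1, needed for the oxytocin and vasopressin neurons of the hypothalamus, was at 0.892, 1.46 and 1.47 CPM in the deficient mice, against 0.756, 1.19 and 0.836 CPM in the wild-type mice, or 0.48 ± 0.28 (SE, adjusted p = 0.892, edgeR). Deficient mice 2 and 3 were above every wild-type mouse, and deficient mouse 1 was not. The 10 striatum markers summed to 1052, 928 and 982 CPM in the deficient mice and 1030.5, 1024 and 978 CPM in the wild-type mice, and the 12 hypothalamus markers to 246, 202 and 219 CPM in the deficient mice and 232, 215 and 210.3 CPM in the wild-type mice, with no marker past 5% FDR in either list. Most of the hypothalamus sum was Sst, at 172, 142 and 139 CPM in the deficient mice, against 157, 152 and 132 CPM in the wild-type mice.

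Genes of the midbrain and hindbrain, where dopamine and serotonin neurons arise, gave no call either. En1, which maintains midbrain dopamine neurons, was at 1.74, 2.43 and 2.64 CPM in the deficient mice, against 2.71, 2.33 and 2.76 CPM in the wild-type mice, or -0.20 ± 0.19 (SE, adjusted p = 0.937, edgeR). Lmx1a, of the dopamine lineage, was at 1.16, 1.42 and 1.86 CPM in the deficient mice, against 1.96, 1.30 and 1.71 CPM in the wild-type mice, or -0.18 ± 0.24 (SE, adjusted p = 0.95, edgeR). Lmx1b, of dopamine and serotonin neurons, was at 2.41, 2.55 and 2.84 CPM in the deficient mice, against 2.67, 2.38 and 2.76 CPM in the wild-type mice, or -0.01 ± 0.17 (SE, adjusted p = 0.997, edgeR). Lmx1b was the steadiest of the 31, its highest mouse 1.19 times its lowest. Foxa1, a forkhead factor of floor plate, dopamine neurons and endoderm, was at 0.580, 0.689 and 0.538 CPM in the deficient mice, against 0.934, 0.866 and 0.919 CPM in the wild-type mice, or -0.58 ± 0.28 (SE, adjusted p = 0.857, edgeR). Its 3 deficient mice were all below the 3 wild-type mice. Its relative Foxa2 had 1, 9 and 4 counts in the deficient mice, against 6, 3 and 5 in the wild-type mice, too few for the test. Pitx3, which midbrain dopamine neurons need, had 3, 5 and 5 counts in the deficient mice, against 4, 6 and 7 in the wild-type mice, also too few, and the groups overlapped.

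The GATA, PAX and NKX genes of the same region were likewise without a call. Gata2, which specifies blood progenitors and midbrain GABA neurons, was at 5.80, 5.51 and 6.94 CPM in the deficient mice, against 6.54, 6.17 and 6.02 CPM in the wild-type mice, or -0.04 ± 0.12 (SE, adjusted p = 0.986, edgeR). Gata3, of T cells and of hindbrain serotonin neurons, was at 1.47, 2.59 and 2.20 CPM in the deficient mice, against 1.87, 2.11 and 1.67 CPM in the wild-type mice, or 0.16 ± 0.23 (SE, adjusted p = 0.959, edgeR), lowest in deficient mouse 1 and highest in deficient mouse 2. The serotonin-making enzyme gene Tph2 was also lowest and highest in those mice, at 4.01, 13.3 and 12.1 CPM in the deficient mice, against 6.00, 6.92 and 9.15 CPM in the wild-type mice, and what that shared order owes to the tissue taken was not tested. Pax2, of the midbrain-hindbrain boundary and of cerebellar interneurons, was at 4.73, 3.04 and 4.55 CPM in the deficient mice, against 3.38, 3.52 and 4.43 CPM in the wild-type mice, or 0.11 ± 0.18 (SE, adjusted p = 0.969, edgeR). Its relative Pax5, also of B cells, was at 0.446, 0.365 and 0.196 CPM in the deficient mice, against 0.622, 0.487 and 0.460 CPM in the wild-type mice, or -0.62 ± 0.39 (SE, adjusted p = 0.893, edgeR), lower in each deficient mouse than in any wild-type mouse. Pax8, also of thyroid and kidney, was at 1.20, 0.730 and 1.12 CPM in the deficient mice, against 0.845, 0.703 and 1.09 CPM in the wild-type mice, or 0.18 ± 0.29 (SE, adjusted p = 0.966, edgeR), and its groups overlapped, as did those of Gata2 and Pax2.

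Nkx2-2, of ventral neural tube and oligodendrocyte precursors, was at 3.03, 3.24 and 2.35 CPM in the deficient mice, against 2.49, 2.60 and 3.34 CPM in the wild-type mice, or 0.03 ± 0.18 (SE, adjusted p = 0.991, edgeR). The 8 precursor markers summed to 378, 379 and 349 CPM in the deficient mice and 390.2, 362 and 378 CPM in the wild-type mice. Nkx6-1, of motor neurons and pancreatic beta cells, was at 0.178, 0.487 and 0.636 CPM in the deficient mice, against 0.622, 0.541 and 0.878 CPM in the wild-type mice, or -0.68 ± 0.41 (SE, adjusted p = 0.892, edgeR). Deficient mouse 1, at 4 counts, was far below the rest, deficient mouse 2 was also under every wild-type mouse, and deficient mouse 3 lay among them.

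Dorsal and spinal cord genes were at low levels with overlapping groups. Pax3, of the dorsal neural tube, neural crest and muscle precursors, was at 1.52, 1.78 and 2.35 CPM in the deficient mice, against 2.00, 1.68 and 1.80 CPM in the wild-type mice, or 0.03 ± 0.21 (SE, adjusted p = 0.992, edgeR). Its sister gene Pax7, of muscle stem cells and the dorsal midbrain, was at 1.61, 1.91 and 2.30 CPM in the deficient mice, against 1.56, 1.19 and 2.09 CPM in the wild-type mice, or 0.24 ± 0.24 (SE, adjusted p = 0.937, edgeR). Deficient mouse 3 was the highest of the 6 for both. Evx1, of commissural interneurons in the spinal cord, had 20, 7 and 10 counts in the deficient mice, against 15, 9 and 9 in the wild-type mice, or 0.11 ± 0.43 (SE). Its relative Evx2 had 18, 21 and 14 counts in the deficient mice, against 21, 8 and 12 in the wild-type mice, or 0.31 ± 0.33 (SE). Neurog2, a basic helix-loop-helix factor that starts neuron formation in cortex, was at 1.03, 0.770 and 0.880 CPM in the deficient mice, against 0.622, 0.812 and 0.878 CPM in the wild-type mice, or 0.21 ± 0.28 (SE, adjusted p = 0.953, edgeR). Tbx20, of heart and hindbrain motor neurons, had 7, 5 and 9 counts in the deficient mice, against 3, 13 and 11 in the wild-type mice, or -0.42 ± 0.53 (SE). Neurog1 had 0 to 3 counts and Atoh1 0 to 1 count in each library, which are factors of embryonic neuron precursors, and Sim2, of the ventral midline, had 4 to 8.

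Genes of vessels, meninges and mesenchyme held the remaining tested members, and the gene with the smallest p among the 31. Tbx2, a transcriptional repressor that acts in heart and limb development, was at 2.81, 2.39 and 2.35 CPM in the deficient mice, against 2.09, 1.79 and 1.63 CPM in the wild-type mice, or 2.52 ± 0.255 CPM in the deficient mice and 1.83 ± 0.234 CPM in the wild-type mice (SD, n = 3 each). Each deficient mouse was above each wild-type mouse, at 1.37 times the wild-type level by summed counts scaled for library size, or 0.46 ± 0.19 (SE, adjusted p = 0.799, edgeR), and its unadjusted p was 0.0287. The gene lies on chromosome 11 at 85832551 to 85841948 (GRCm38, plus strand). Its close relative Tbx3, which also acts in hypothalamic neurons, was at 2.41, 2.72 and 3.72 CPM in the deficient mice, against 2.58, 2.49 and 2.76 CPM in the wild-type mice, or 0.16 ± 0.19 (SE, adjusted p = 0.941, edgeR), and its groups overlapped. Over all genes tested, 5.6% had every deficient mouse above every wild-type mouse and 5.63% had every one below. Among the 31 these were 1 gene above (Tbx2) and 2 genes below (Pax5 and Foxa1), which is near the background.

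Foxc1, of meninges and pericytes, was at 5.17, 7.18 and 5.57 CPM in the deficient mice, against 5.91, 5.79 and 6.39 CPM in the wild-type mice, or -0.01 ± 0.14 (SE, adjusted p = 0.997, edgeR). Sox17, of arterial endothelium, was at 5.53, 4.09 and 5.57 CPM in the deficient mice, against 4.45, 4.92 and 5.10 CPM in the wild-type mice, or 0.07 ± 0.15 (SE, adjusted p = 0.977, edgeR). The 12 markers of endothelium and pericytes summed to 380.5, 377 and 361 CPM in the deficient mice and 379, 369.7 and 326 CPM in the wild-type mice, and the 10 of meningeal fibroblasts to 224, 202 and 257 CPM in the deficient mice and 209, 211 and 234 CPM in the wild-type mice. No marker of either list passed 5% FDR, and both genes overlapped between genotypes. Tbx15, of mesenchyme and skeleton, was at 1.78, 1.5001 and 1.03 CPM in the deficient mice, against 1.24, 1.19 and 1.38 CPM in the wild-type mice, or 0.18 ± 0.25 (SE, adjusted p = 0.956, edgeR). Tbx1, of the pharyngeal arches, was at 0.892, 1.09 and 0.636 CPM in the deficient mice, against 0.80031, 1.03 and 1.34 CPM in the wild-type mice, or -0.26 ± 0.29 (SE, adjusted p = 0.941, edgeR), and Six2, of kidney progenitors, had 11, 15 and 13 counts in the deficient mice, against 5, 11 and 15 in the wild-type mice, or 0.27 ± 0.39 (SE). In the sum over all 51 genes the deficient mice stood at 133.7, 143.6 and 147.9 CPM and the wild-type mice at 134.1, 135.3 and 140.1 CPM, so that deficient mouse 1 was lowest and the groups overlapped.

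Phox2a, a homeodomain factor that noradrenaline neurons of the locus coeruleus need, separated the genotypes at counts too low for the test. It had 9, 6 and 11 counts in the deficient mice, against 1, 0 and 2 in the wild-type mice, or 0.394 ± 0.147 CPM in the deficient mice and 0.0427 ± 0.0418 CPM in the wild-type mice (SD, n = 3 each). Each deficient mouse was above each wild-type mouse, and the summed counts, 26 in the deficient mice against 3 in the wild-type mice, gave a ratio of 8.33 once scaled for library size (95% exact binomial interval 2.55 to 43.0, which covers counting error only and takes mice as alike). Among the 5562 counted rows under the filter, 3.67% had every deficient mouse above every wild-type mouse and 3.16% every one below, and of the 17 genes of that kind here Phox2a and Foxd3 were above and none was below. With no filter on low counts its log2 fold change was 2.92 (SE 0.74, unadjusted p = 0.000279), and its edgeR adjusted p was 0.123, so it did not pass 5% FDR. The adjusted p was 0.0739 to 0.457 when each mouse was left out in turn, also with no filter. In the authors' deposited table, whose fold changes are wild type over deficient, Phox2a had an unadjusted DESeq2 p of 0.0113 and no adjusted p. It was the only one of the 48 genes with a p there that was under 0.05. Its log2 fold change there was -0.0386 (SE 0.0152) at a mean normalized signal of 4.79. Other genes also had small values there, such as 0.0258 (SE 0.0231) for Nkx6-1, against -0.68 by edgeR in the opposite order of genotypes. The sizes in the authors' table are thus not on the scale of the edgeR values and cannot be set against them. The DESeq2 fit made here gave Phox2a a log2 fold change of 3.12, deficient over wild type.

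Values of noradrenaline neurons were set beside Phox2a. Dbh, the enzyme that makes noradrenaline, was at 4.50, 3.32 and 4.55 CPM in the deficient mice, against 2.67, 3.30 and 2.51 CPM in the wild-type mice, or 0.55 ± 0.17 (SE, adjusted p = 0.603, edgeR). Its groups did not overlap either, as in 5.6% of all genes tested in this direction. Deficient mouse 2 and wild-type mouse 2 were nearly level for Dbh. Slc6a2, the noradrenaline transporter, was at 4.86, 3.77 and 4.45 CPM in the deficient mice, against 3.51, 3.57 and 4.18 CPM in the wild-type mice, or 0.21 ± 0.15 (SE, adjusted p = 0.904, edgeR), with overlap. The 12 markers of mid- and hindbrain monoamine neurons, all counted, summed to 216, 281 and 269 CPM in the deficient mice and 239, 260.5 and 251 CPM in the wild-type mice, with overlap and no marker past 5% FDR. Dbh and Slc6a2 belong to this list, and Dbh had the highest log2 fold change of the 11 genes tested from it. Above 0 were 7 of the 11, and the middle value was 0.03. Below 0 were Slc6a3 (-0.16), Ret (-0.07), Ddc (-0.04) and Slc18a2 (-0.006), and Th stood at 0.02. Phox2a lies on chromosome 7 at 101818313 to 101822726 (GRCm38, plus strand), and 95 bases of its exons overlap Inppl1 on the opposite strand. Inppl1, a lipid phosphatase gene, had 1033, 1227 and 928 counts in the deficient mice, against 1062, 769 and 1156 in the wild-type mice, so reads of the overlap cannot be assigned without the strand setting, and Inppl1 itself had a log2 fold change of 0.04 ± 0.06 (SE). What the tissue taken or the overlap adds to the Phox2a counts was not tested.

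**Figure D4:**
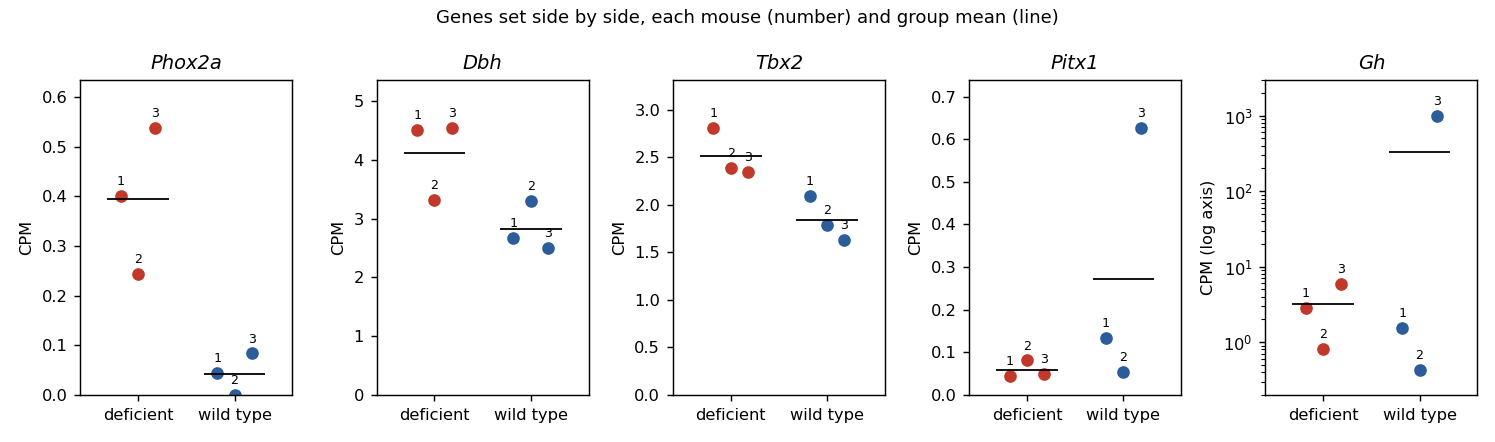
Level in CPM (y axes) of Phox2a, Dbh, Tbx2, Pitx1 and Gh, with 1 point per mouse (numbered) and a line at the mean of 3 mice. Deficient mice lie above wild-type mice for Phox2a, Dbh and Tbx2, though for Dbh deficient mouse 2 and wild-type mouse 2 are nearly level. Wild-type mouse 3 stands alone for Pitx1 and, on a log axis, for Gh.

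Pitx1, a factor of pituitary and hindlimb, separated 1 mouse rather than the genotypes. It had 1, 2 and 1 counts in the deficient mice, against 3, 1 and 15 in the wild-type mice, so that 15 of its 23 counts came from wild-type mouse 3, the library with the growth hormone and prolactin counts. The 8 anterior pituitary markers summed to 3.66, 1.62 and 9.39 CPM in the deficient mice and 2.71, 1.35 and 1397 CPM in the wild-type mice. Pou1f1, the pituitary factor that turns on Gh and Prl, had 1, 1 and 1 counts in the deficient mice, against 0, 0 and 35 in the wild-type mice. With no filter on low counts the log2 fold change of Pitx1 was -2.18 (edgeR adjusted p = 0.676), and without wild-type mouse 3 it was -0.67 (edgeR adjusted p = 0.926). Foxd3, of neural crest, had 6, 5 and 7 counts in the deficient mice, against 3, 2 and 4 in the wild-type mice, higher in each deficient mouse, and with no filter it came to 0.92 ± 0.62 (SE, adjusted p = 0.887, edgeR). It was singled out after its values were seen.

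A further 8 genes that direct other organs had few or no counts in both genotypes. Gata4, of heart and gut, had 0, 1 and 0 counts in the deficient mice, against 1, 0 and 2 in the wild-type mice. Gata6, of the same organs, had 4, 2 and 4 counts in the deficient mice, against 3, 2 and 3 in the wild-type mice. Pax1 and Pax9, of vertebrae, thymus and teeth, had 0 to 2 counts per library. Myod1, the master regulator of skeletal muscle, had 1, 4 and 0 counts in the deficient mice, against 1, 3 and 1 in the wild-type mice. Wt1, of kidney and gonad, had 1 to 4, Gsc, of the embryonic organizer, 0 to 2, and Tbx4, of hindlimb and lung, 2 to 9 counts per library. Counts of this size overlap between genotypes in each of these genes, and a difference in them was not detectable at this depth.

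Of the 51 genes 10 pairs lie within 1 Mb of each other, and the 4 pairs given here, chosen after their levels were seen, each join an active gene to one at a much lower level. Tbx2 and Tbx4 are 44.5 kb apart on chromosome 11, at 0.59998 and 0.0792 CPM per kb of exon. Tbx3 and Tbx5 are 148 kb apart on chromosome 5, at 0.419 and 0.00349 CPM per kb. Six3 and Six2 are 55.0 kb apart on chromosome 17, at 2.56 and 0.250 CPM per kb. Nkx2-2 and Pax1 are 168 kb apart on chromosome 2, at 0.989 and 0.0121 CPM per kb. The order within each of these 4 pairs was the same in all 6 mice, which follows largely from choosing pairs that differ so much. Not all neighbours differ in this way: Pitx1 and Neurog1, 414 kb apart on chromosome 13, were at 0.0621 and 0.0540 CPM per kb. That Pitx1 mean leans on wild-type mouse 3, at 0.236 CPM per kb. Pitx1 was at 0.0168, 0.0305 and 0.0184 CPM per kb in the deficient mice, and at 0.0502 and 0.0204 in wild-type mice 1 and 2.

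Some of the genes share exon bases with a transcript on the opposite strand, which counting without strand cannot separate. Of the 51 genes 15 have such an overlap in GENCODE M21, and 8 of them are among the 31 tested. Six3os1, which runs opposite to Six3 and is transcribed from the same region, was at 4.33, 3.65 and 3.76 CPM in the deficient mice, against 5.29, 4.54 and 4.26 CPM in the wild-type mice, or -0.26 ± 0.14 (SE, adjusted p = 0.881, edgeR). It lay in the same direction as Six3 and its groups overlapped. No gene outside these overlaps had a transcript at least 95% identical to one of the 51 over at least 200 bases.

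The machinery that sets and removes the mark was measured in the same mice. Of 36 genes of H3K27 methylation and the Polycomb complexes, all tested, 1 was lower at 5% FDR, which is Kdm6a, and none was higher. Their median log2 fold change was 0.01. E130012A19Rik, also known as Epop, a partner of Polycomb repressive complex 2, was next in p at 46.0, 39.1 and 44.9 CPM in the deficient mice, against 52.2, 46.3 and 50.1 CPM in the wild-type mice, or -0.20 ± 0.07 (SE, adjusted p = 0.712, edgeR). Rbbp4, a histone-binding subunit of that complex, stood at 0.10 ± 0.05 (SE, adjusted p = 0.852, edgeR), and Pcgf5, of the other Polycomb complex, at -0.18 ± 0.10 (SE, adjusted p = 0.878, edgeR). Ezh1 and Ezh2, the methyltransferases of H3K27, stood at -0.03 ± 0.05 (SE, adjusted p = 0.972, edgeR) and 0.16 ± 0.13 (SE, adjusted p = 0.909, edgeR). The autosomal demethylase Kdm6b stood at -0.07 ± 0.08 (SE, adjusted p = 0.939, edgeR), and the Y-linked relative Uty at 0.12 ± 0.07 (SE, adjusted p = 0.881, edgeR).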

How the data were processed

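RNA of 6 mouse brains was prepared with a column kit and Illumina TruSeq RNA libraries, as the labels' protocols state. GRCm38 and DESeq2 are named in the submitters' processing notes; the sources used here name no aligner, counting tool, annotation or strand setting. The authors deposited raw counts per gene symbol, without normalization. The same table holds, per the file headers, the authors' own DESeq2 output, with a mean normalized signal per gene, log2 fold changes and errors, a test score, and raw and adjusted p-values. Those p-values were used only where the authors' table is named.

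The test was that of edgeR 4.0.16 in R 4.3.3, a two-sided quasi-likelihood F test with robust settings after filterByExpr at its defaults and TMM scaling, with Benjamini-Hochberg adjustment over all 15030 genes tested. Each SE was taken from the fold change and the F statistic (absolute log2 fold change over root F). CPM uses TMM-scaled library sizes. The code was tested on simulated data. Alternatives changed the scaling (RLE), the filter (none, or mean CPM of at least 1), the tool (DESeq2 1.42.0, or voom in limma 3.58.1), the mice (1 left out, or numbers blocked) and the detection bar. Rows with a 5-digit number for a symbol (27, with 0.350% of the counts) stayed in the totals. A chi-square statistic per degree of freedom was 3.44 to 6.73 over the 15 pairs of libraries, so no library repeated another. Positions, exon lengths and overlaps come from GENCODE M21, and promoters from RefSeq on GRCm38.p6.

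The genes, the marker lists and the tests were chosen with earlier results of these data known. Values are given in every mouse for each gene past the expression filter and for genes with an unadjusted p under 0.05 with or without that filter. The mice are separate animals, but litters are not named.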

Additional observations from a re-analysis of the deposited data

How the results depend on the processing

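No gene of the 51 that received an adjusted p passed 5% FDR by edgeR or any alternative run. These were 31 genes in most fits, 48 with no filter, 21 at 1 CPM and 18 with DESeq2. The alternatives were RLE scaling, no filter or one at 1 CPM, DESeq2, voom, a replicate block on mouse numbers, and 1 mouse left out. None of the 31 passed 10% by edgeR with the filter and all 6 mice. Unadjusted p was under 0.05 for 1 gene by edgeR, 3 with no filter, 1 with DESeq2 and 2 with voom. The smallest adjusted p among them ran from 0.123 (no filter) to 0.99986 (without wild-type mouse 1). In the added edgeR fits with no filter and 1 mouse left out, Phox2a reached an adjusted p of 0.0739 without wild-type mouse 3. Over all genes the number of calls was 7, and it was 25 with no filter, 20 with DESeq2, 15 with the mouse number as a block and 3 to 17 with 1 mouse left out. The calls numbered 3 without wild-type mouse 2, 12 without deficient mouse 1, 15 without deficient mouse 3 and 17 without wild-type mouse 3. The replicate block changed no call among the 51 genes, and same-numbered mice showed little shared deviation (correlations of -0.000612, 0.0810 and 0.0480). Litters are not named, so these values do not settle whether the numbers pair the mice.

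Of 362 recomputed log2 fold changes 336 kept their sign and 26 reversed it, 25 of these with a mouse left out, in 13 genes that were not past the threshold in any fit. Their ranges with 1 mouse left out were Gata2 (-0.14 to 0.027), Gata3 (-0.036 to 0.36), Pax2 (-0.012 to 0.29), Pax3 (-0.14 to 0.16), Tbx3 (-0.025 to 0.29), Tbx20 (-0.86 to 0.052), Nkx2-1 (-0.14 to 0.15), Nkx2-2 (-0.065 to 0.19), Foxc1 (-0.17 to 0.084), Six2 (-0.084 to 0.55), Evx1 (-0.42 to 0.45), Lmx1b (-0.071 to 0.041) and Sox17 (-0.0063 to 0.20). Evx1 was also at -0.0047 with limma-voom. The cause was not tested.

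The detection bar sets the number of silent genes. It was 9 at 3 counts, 9 at 0.1 CPM and 18 at 10 counts, against 3 at 1 count. At 10 counts deficient mouse 2 had 28 genes, wild-type mouse 1 had 29 and wild-type mouse 2 had 28. At 3 counts and at 0.1 CPM, 1 gene (Phox2a) was present in all deficient mice and no wild-type mouse. Over all rows with counts, deficient-only genes made up 0.0971% at 3 counts and 0.0534% at 0.1 CPM, and wild-type-only genes 0.034% and 0.102%. Without Pax6, En2 and Six3 the summed level was 69.1, 72.4 and 79.1 CPM in the deficient mice and 71.3, 68.8 and 74.2 CPM in the wild-type mice. Depth limits the 17 counted genes under the filter. The Phox2a and Pitx1 fits with no filter and 1 mouse left out were chosen after seeing the data.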

Other observations

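No mouse was at the low or the high end for most of the 31 tested genes. Deficient mouse 1 was the lowest of the 6 for 8 of them, among them Gata3, Nkx6-1, Lmx1a, En1 and Lhx1, and wild-type mouse 3 for 2. Deficient mouse 3 was the highest for 9, and wild-type mouse 2 for 1. The choroid plexus markers, led by the transthyretin gene Ttr, summed to 659, 923 and 1057 CPM in the deficient mice and 816, 994 and 1227 CPM in the wild-type mice, lowest in deficient mouse 1 and highest in wild-type mouse 3, with no marker past 5% FDR.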
